A study of Mus musculus with 12 samples.

Results

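Transcripts of 9 enzymes that make serine and carry its carbon through the folate cycle were followed in 6 primary T-ALLs of the mouse (acute lymphoblastic leukemias of the T lineage, which arise from developing thymocytes), given vehicle (VEH) or dexamethasone (DEX), a synthetic glucocorticoid used against this disease. The enzymes were taken by gene name: Phgdh, Psat1 and Psph of serine synthesis, Shmt1 and Mthfd1 of the cytosolic folate cycle, Shmt2, Mthfd2 and Mthfd1l of the mitochondrial cycle, and Tyms, the thymidylate synthase. All 9 names were found, with 1 row each, among the 38339 genes of the deposited table. Each leukemia, of C57BL/6 x 129Sv/Jae F1 background, was carried in transplanted mice, and RNA was taken from the bone marrow of moribund recipients of VEH or DEX, 4 hours after the dose. This gave 12 libraries in 6 pairs, and the leukemias are numbered 1 to 6 here. The leukemia is the replicate (n = 6), with 1 library for each treatment, so within a pair the treatment and the library cannot be told apart. The labels give no number of recipients for a library, no genotype of the leukemias, no dose and no purity of the marrow. In bulk RNA, fewer leukemic cells and less of a transcript in each cell cannot be told apart.

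Values are FPKM, fragment counts scaled to gene length and to library size, so levels may be compared between genes. The file gives no depth. By an estimate from the steps between values of genes with few fragments, 11 libraries held between 11700000 and 36100000 fragments, and the VEH library of leukemia 2 gave no sharp estimate. At those depths the lowest value of any of the enzymes rested on about 353 fragments. Of 10 T-ALL markers, 9 stood at 1 FPKM or more in all 12 libraries (Cd7 was the exception), with a summed level of 1145 to 1718 FPKM in VEH and 1009 to 1456 FPKM in DEX, lower in DEX in 6 of 6 leukemias. Of the 9 T-ALL markers tested, 4 fell (Cd5, Cd3g, Lck and Cd2), where 9.28% of all tested genes fell (limma, adjusted p under 0.05). The part of these markers in the results below was not tested. Transcripts of other marrow cells were present as well: 10 granulocyte markers summed to 2321 to 8986 FPKM in VEH and 1527 to 5397 FPKM in DEX, with the sum lower in DEX in 5 of 6 leukemias. None of these granulocyte markers was at 0 in every library. Markers of red cell precursors summed to 8.67 to 1178 FPKM in VEH and 14.2 to 151 FPKM in DEX (lower in 3 of 6) and those of macrophages and monocytes to 114 to 629 and 49.0 to 383 FPKM (lower in 4 of 6), and 0 of the 5 and 0 of the 7 tested passed (limma; 0 and 1 at an unadjusted p under 0.05).

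Serine is made from a glycolytic intermediate by PHGDH, PSAT1 and PSPH in turn. SHMT1 in the cytosol and SHMT2 in mitochondria move a carbon from serine to tetrahydrofolate, leaving glycine. In mitochondria, MTHFD2 oxidises this carbon and MTHFD1L releases it as formate, which MTHFD1 recharges onto folate in the cytosol. The cytosolic carbon units go into purines, into methionine and, through TYMS, into thymidylate for DNA. Proliferating lymphocytes draw on this supply, and antifolate drugs that block it are part of leukemia treatment.

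The regions just before the start sites are shown for the enzyme with the largest change (Mthfd2), for the one with the next largest (Shmt1) and for an enzyme whose level differed little (Tyms). Each is the 250 bases before the RefSeq start site on build GRCm38.p6, read 5′ to 3′ on the gene's own strand, which is the minus strand for all 3: chr6:83317605-83317854 for Mthfd2, chr11:60811266-60811515 for Shmt1 and chr5:30073626-30073875 for Tyms. The GENCODE spans of Mthfd2 and Shmt1 take in other transcripts that start further upstream than the RefSeq start, so these windows lie inside those spans. Capitals mark matches to the motifs described next.
Mthfd2: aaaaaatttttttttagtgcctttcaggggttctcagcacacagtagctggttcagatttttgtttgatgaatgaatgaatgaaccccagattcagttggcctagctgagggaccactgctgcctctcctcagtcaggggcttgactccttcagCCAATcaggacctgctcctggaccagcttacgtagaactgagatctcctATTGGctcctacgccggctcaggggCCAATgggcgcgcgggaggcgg
Shmt1: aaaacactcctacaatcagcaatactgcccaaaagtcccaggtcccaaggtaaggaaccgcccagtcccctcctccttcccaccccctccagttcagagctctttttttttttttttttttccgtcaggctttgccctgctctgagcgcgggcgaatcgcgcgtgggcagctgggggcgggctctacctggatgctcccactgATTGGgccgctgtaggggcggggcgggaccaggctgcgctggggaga
Tyms: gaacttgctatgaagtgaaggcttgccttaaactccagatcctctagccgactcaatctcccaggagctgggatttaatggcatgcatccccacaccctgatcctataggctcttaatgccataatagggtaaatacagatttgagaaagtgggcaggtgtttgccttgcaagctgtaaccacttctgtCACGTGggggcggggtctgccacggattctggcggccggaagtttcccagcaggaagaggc

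Motifs were searched on both strands in the 10 windows that RefSeq gives for the 9 enzymes (Psat1 has 2) and in all 32851 windows of the same length. The C/EBP-ATF element TGATGNAA, which ATF4 can bind, was in 0 of the 10 windows and in 3.45% of all windows. The E-box CACGTG, a MYC site, was in the Tyms window alone, 61 bases before the start site, against 6.02% of all windows. The E2F forms TTTCCCGC and TTTGGCGC were in none of the 10 (0.895% and 0.417% of all windows). The half-site TGTTCT of the glucocorticoid receptor was found in 1 window, that of Psph, and in 16.1% of all. The CCAAT box, a frequent promoter element written CCAAT, was added after the windows had been seen. It was found 3 times for Mthfd2, a count of at least 3 being reached by 2.79% of all windows. It occurred 2 times each for Phgdh, for Psph and for 1 of the Psat1 windows, and 10.1% of all windows had at least 2. Shmt1 and Mthfd1 had 1 each, and 33.8% of all windows had at least 1. Mthfd1l, Shmt2, Tyms and the other Psat1 window had none, as did most of all windows. No motif overlapped another in these windows. A match describes the letters of the window only.

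After 4 hours of dexamethasone, 4 of the 9 enzymes had fallen: Mthfd2 to 36.9% of its VEH level, Shmt1 to 63.5%, Mthfd1 to 72.9% and Psat1 to 79.8% (geometric mean over 6 leukemias). Of all 12358 tested genes, 9.28% fell. The other 5 enzymes did not pass the test, and 0 rose, where 4.27% of tested genes did, and 13.6% changed in either direction (limma, adjusted p under 0.05; at an unadjusted p under 0.05 there were 5 lower, the fifth being Phgdh, and 0 higher). The median difference of the 9 was -0.22 on the log2(FPKM + 1) scale and that of all tested genes -0.053. By arm of the pathway, 1 of 3 enzymes of serine synthesis, 2 of 2 of the cytosolic cycle and 1 of 3 of the mitochondrial cycle fell, and Tyms did not pass. All 4 that fell were lower in DEX in 6 of 6 leukemias, as were 13.7% of tested genes.

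**Figure D1:**
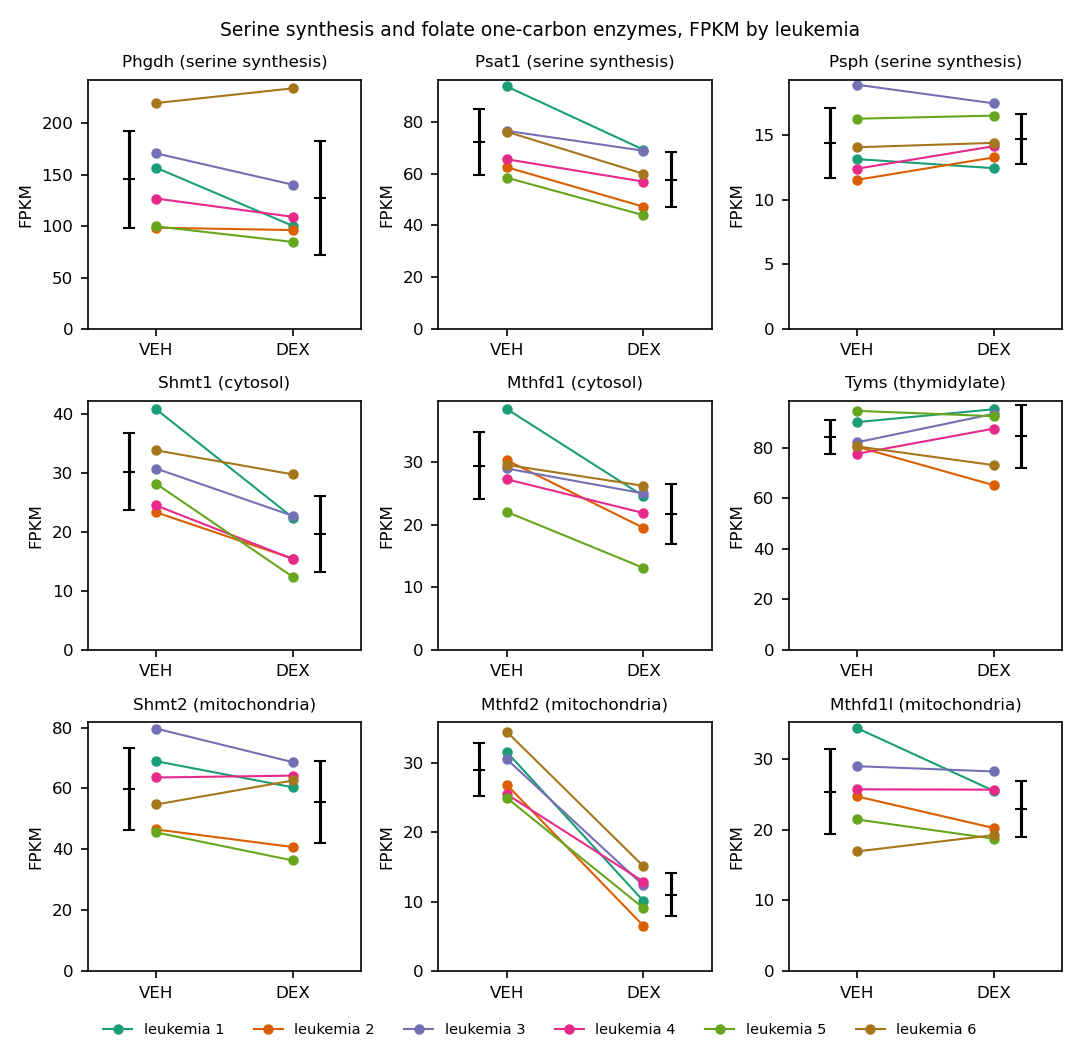
FPKM of each enzyme in VEH and DEX (vertical axes from 0), with a line for each of the 6 leukemias and black bars for the mean and SD. Only for Mthfd2 do the 6 DEX values (6.54 to 15.14) all lie under the 6 VEH values (25.0 to 34.55).

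In serine synthesis, Phgdh, the first enzyme and the one with the highest level of the 9, stood at 98.48, 141.8 and 219.8 FPKM (lowest, median and highest) in VEH and at 84.63, 104.7 and 234.1 FPKM in DEX. It was lower in DEX in 5 of 6 leukemias and the groups overlapped. Leukemia 1 dropped to 64.0% of its VEH level, leukemias 3, 4 and 5 to 82.2%, 86.0% and 84.9%, and leukemia 2 stood at 97.7%. In leukemia 6, which had the highest Phgdh in both arms, the DEX library stood at 106.5% of VEH. The log2 difference was -0.22 ± 0.09 (SE, n = 6; 95% interval -0.42 to -0.01) and did not pass after adjustment over all genes (limma adjusted p = 0.143). With quantile normalization (-0.33, adjusted p = 0.0193) or rescaling to TPM (-0.36, adjusted p = 0.0183) it did. Without leukemia 1 it stood at -0.13 (adjusted p = 0.312), in leukemias 1, 3 and 4 alone at -0.38 (adjusted p = 0.0811) and in leukemias 2, 5 and 6 alone at -0.059 (adjusted p = 0.757).

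Psat1, the aminotransferase of the second step (chromosome 19, 15904678 to 15947337 on GRCm38), stood at 58.48, 70.93 and 93.76 FPKM in VEH (lowest, median and highest) and at 44.00, 58.48 and 69.34 FPKM in DEX. Every leukemia was lower in DEX, at 74.0% to 90.0% of its VEH value, and the groups overlapped. The log2 difference was -0.32 ± 0.06 (SE, n = 6; adjusted p = 0.0126). Without leukemia 5 it was -0.30 (adjusted p = 0.0518).

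Psph, the phosphatase of the last step, was the lowest of the 9 in VEH, at 11.55, 13.61 and 18.91 FPKM (lowest, median and highest). In DEX it stood at 12.45, 14.28 and 17.47 FPKM, lower in 2 of 6 leukemias and higher in 4. It differed by 0.039 ± 0.070 on the log2 scale (SE, n = 6; 95% interval -0.12 to 0.20; adjusted p = 0.745), and its sign turned when rescaled to TPM (-0.091). Of its 4329 exonic bases, 452 are shared with Cct6a, a chaperonin gene on the opposite strand that reached 158 FPKM. Whether fragments were counted by strand is not given in the sources used here, so the Psph level is uncertain.

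In the cytosolic folate cycle both enzymes fell. Shmt1, the serine hydroxymethyltransferase of the cytosol (ENSMUSG00000020534, chromosome 11), stood at 23.32, 29.45 and 40.78 FPKM in VEH (lowest, median and highest) and at 12.38, 18.95 and 29.76 FPKM in DEX. The DEX library was the lower one in 6 of 6 leukemias, and the groups overlapped. The steepest drop was in leukemia 5, to 44.0% of VEH, and the shallowest in leukemia 6, to 88.0%. On the log2 scale it fell by 0.63 ± 0.11 (SE, n = 6; limma adjusted p = 0.0102). A short stretch of its exons is shared with Smcr8 on the opposite strand, which reached 13.83 FPKM.

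Mthfd1, the trifunctional enzyme that recharges formate onto folate (ENSMUSG00000021048, chromosome 12), stood at 22.09, 29.32 and 38.56 FPKM in VEH (lowest, median and highest). In DEX it stood at 13.14, 23.27 and 26.27 FPKM, again lower in 6 of 6 leukemias with overlapping groups. Leukemias 1, 2 and 5 kept 63.9%, 64.4% and 59.5% of their VEH level, and leukemias 3, 4 and 6 kept 86.3%, 80.2% and 88.7%. Mthfd1 fell by 0.44 ± 0.09 on the log2 scale (SE, n = 6; adjusted p = 0.0166). This call ended without leukemia 1 (-0.40, adjusted p = 0.0587) and without leukemia 5 (-0.38, adjusted p = 0.0596).

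In the mitochondrial cycle the enzymes differed. Mthfd2, the dehydrogenase and cyclohydrolase (ENSMUSG00000005667, chromosome 6, 83305691 to 83325908 on GRCm38, minus strand), stood at 31.63, 26.89, 30.59, 25.52, 25.0 and 34.55 FPKM in the VEH libraries of leukemias 1 to 6. In DEX the same leukemias stood at 10.13, 6.54, 12.37, 12.90, 9.10 and 15.14 FPKM. All 6 DEX values lay under all 6 VEH values, which held for 1.34% of tested genes. Single leukemias kept between 24.3% (leukemia 2) and 50.5% (leukemia 4) of their VEH level. The log2 difference was -1.35 ± 0.12 (SE, n = 6; 95% interval -1.62 to -1.09; limma adjusted p = 0.000628), the 11th lowest of the 12358 tested. Without leukemia 2 it was -1.25 (limma adjusted p = 0.00137). In that leukemia the red cell marker sum was 1178 FPKM in VEH and 151 FPKM in DEX. The part of this in its Mthfd2 value was not tested. Mthfd2 had the lowest difference of the 9 enzymes in 6 of 6 leukemias. In VEH it stood above Psph in 6 of 6 leukemias, and in DEX in 1 of 6, though the Psph level is uncertain because of its overlap with Cct6a.

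Shmt2, the mitochondrial serine hydroxymethyltransferase, stood at 45.53, 59.19 and 79.70 FPKM in VEH (lowest, median and highest) and at 36.33, 61.51 and 68.65 FPKM in DEX. In all, 4 leukemias were lower in DEX and 2 were higher, leukemia 4 at 101.0% and leukemia 6 at 114.4% of VEH. The log2 difference was -0.12 ± 0.08 (SE, n = 6; 95% interval -0.29 to 0.05; adjusted p = 0.332). Mthfd1l, the formate-releasing synthetase, stood at 16.94, 25.25 and 34.42 FPKM in VEH and at 18.75, 22.90 and 28.28 FPKM in DEX. It was lower in DEX in 5 of 6 leukemias, with leukemia 6 at 113.7% of VEH, and its log2 difference was -0.12 ± 0.08 (95% interval -0.32 to 0.07; adjusted p = 0.359). These intervals leave room for falls of up to 0.29 and 0.32. Shmt2 stood at -0.077 without leukemia 5 and at -0.18 without leukemia 6, and Mthfd1l at -0.065 without leukemia 1, none past the threshold (adjusted p = 0.601, 0.127 and 0.666).

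Tyms, which makes thymidylate (ENSMUSG00000025747, chromosome 5), was the second highest enzyme in VEH. It stood at 77.53, 81.25 and 94.48 FPKM in VEH (lowest, median and highest) and at 65.10, 89.92 and 95.11 FPKM in DEX. Leukemias 2, 5 and 6 were lower in DEX and the other 3 were higher. Its log2 difference was -0.0059 ± 0.076 (SE, n = 6; 95% interval -0.18 to 0.17; adjusted p = 0.966), and its sign turned in 5 of 18 alternatives, among them median-of-ratios scaling (0.044).

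**Figure D2:**
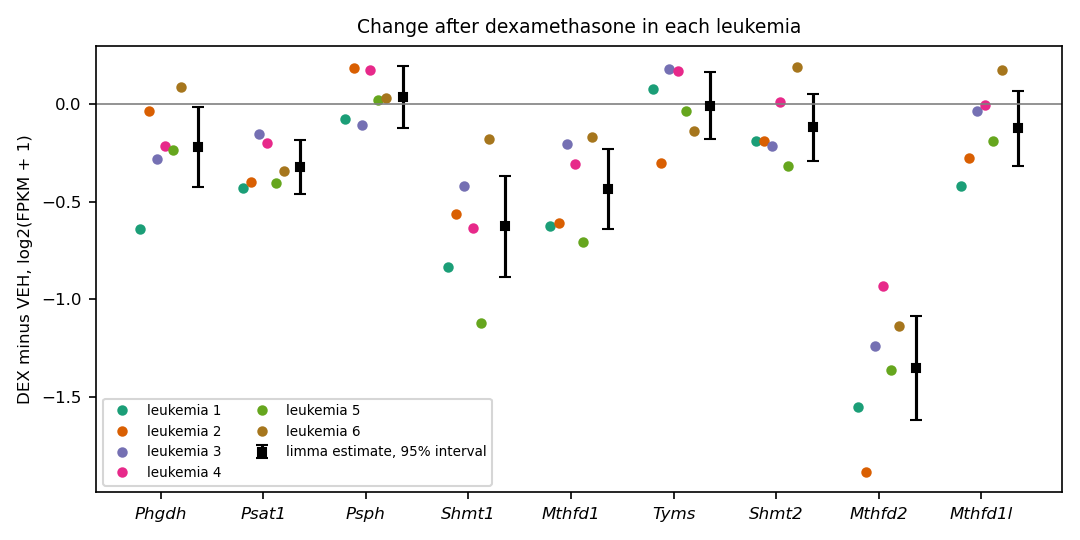
Log2(FPKM + 1) in DEX minus VEH for each enzyme and leukemia (coloured points), with the limma estimate and its 95% interval (black). Mthfd2 lies lowest, between -1.89 and -0.93, and the points of Psat1, Shmt1 and Mthfd1 are all under 0.

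The size of the change differed between enzymes of the same or a neighbouring step in different compartments. The FPKM of Shmt2 was 2.02 ± 0.47 times that of Shmt1 in VEH and 2.93 ± 0.69 times in DEX (SD, n = 6). The change of Shmt2 exceeded that of Shmt1 by 0.51 ± 0.23 on the log2 scale (SD, n = 6), in 6 of 6 leukemias. For Mthfd2 over Mthfd1 the ratio went from 0.999 ± 0.14 in VEH to 0.516 ± 0.13 in DEX, with a difference in change of -0.92 ± 0.24, lower in 6 of 6. Mthfd1l over Mthfd1 went from 0.866 ± 0.16 to 1.09 ± 0.23, a difference in change of 0.31 ± 0.12, higher in 6 of 6. Each of these 3 comparisons had an exact two-sided sign-flip p of 0.03125, the smallest that 6 pairs allow, and 0.03125 after Benjamini-Hochberg adjustment over the 3. Relative to the cytosolic enzyme, Shmt2 and Mthfd1l were thus higher in DEX and Mthfd2 was lower. By themselves Shmt2 and Mthfd1l stood at -0.12 each and did not pass, while Shmt1 (-0.63) and Mthfd1 (-0.44) fell. The comparisons of Mthfd2 and of Mthfd1l share Mthfd1, so they are not independent.

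**Figure D3:**
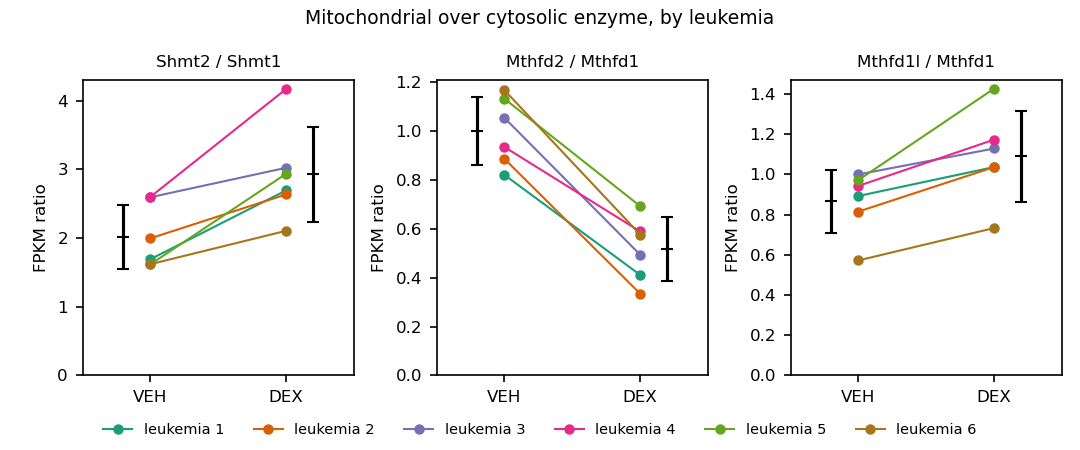
FPKM ratio of a mitochondrial to a cytosolic enzyme (vertical axes from 0), with a line for each leukemia and black bars for the mean and SD. All 6 lines rise for Shmt2 over Shmt1 and for Mthfd1l over Mthfd1, and all 6 fall for Mthfd2 over Mthfd1.

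The order of levels in VEH was Phgdh, Tyms, Psat1, Shmt2, Shmt1, Mthfd1, Mthfd2, Mthfd1l and Psph. Phgdh was above Tyms in 6 of 6 VEH libraries and Shmt2 above Shmt1 in 6 of 6, with no overlap of their ranges. Tyms exceeded Psat1, and Psat1 exceeded Shmt2, in 5 of 6. Shmt1 was above Mthfd1 in 4, Mthfd1 above Mthfd2 in 3 and Mthfd2 above Mthfd1l in 4 of 6, so neighbours in this stretch of the order changed places between leukemias. Further apart in it, Mthfd1 was above Mthfd1l in 5 of 6 VEH libraries and equal in leukemia 3. No test of levels between enzymes was run. In DEX, Mthfd1l was above Mthfd2 in 6 of 6 leukemias.

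Between leukemias, 7 of the 9 enzymes differed (limma F test on the leukemia terms, adjusted p under 0.05), where 51.1% of all tested genes did. The F test used the 12 libraries of both arms with treatment in the model, so its p-values do not test the VEH ranges given with them. Phgdh had the widest VEH range, 2.23-fold from leukemia 2 to leukemia 6 (adjusted p = 0.00151), and Mthfd1l followed at 2.03-fold from leukemia 6 to leukemia 1 (adjusted p = 0.0181). Leukemia 6 was thus the highest for Phgdh and the lowest for Mthfd1l. Tyms had the narrowest range, 1.22-fold (adjusted p = 0.151), and Mthfd2 the next, 1.38-fold (adjusted p = 0.0994), and these 2 did not pass. Leukemia 1 had the highest VEH level of Mthfd1, Mthfd1l, Shmt1 and Psat1.

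Of the 9 enzymes, 8 were lower in DEX in leukemias 1, 2, 3 and 5, where 54.7%, 60.9%, 53.2% and 55.2% of all tested genes were. In leukemia 4 it was 6 of 9, against 51.2% of tested genes, and in leukemia 6 it was 5 of 9, near the 59.9% of tested genes. The median difference of all tested genes was between -0.12 (leukemia 2) and -0.01 (leukemia 4), and -0.09 in leukemia 6. In leukemia 6, Phgdh, Shmt2, Mthfd1l and Psph were above 0, and Shmt1 (-0.18) and Mthfd1 (-0.17) had their smallest falls. Mthfd2 (-1.14) and Psat1 (-0.34) fell there as well. The FPKM of all genes in leukemia 6 summed to 1.66e+06 in VEH and 2.02e+06 in DEX. The DEX sum was also the higher one in leukemia 2 (1.51e+06 and 1.91e+06) and leukemia 5 (1.56e+06 and 1.80e+06). In leukemias 1, 3 and 4 the sums lay closer (1.49e+06 and 1.47e+06, 1.75e+06 and 1.73e+06, 1.63e+06 and 1.68e+06). Rescaling to TPM, which sets these sums equal, lowered the estimates over all 6 leukemias. Phgdh then stood at -0.36, Shmt2 at -0.25, Mthfd1l at -0.26 and Psph at -0.091. The signs in leukemia 6 thus hold for FPKM as deposited, and the part of the sums in them was not tested. Whether the response differed between leukemias was not tested, since each has 1 library per arm.

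The granulocyte marker sum was lower in DEX in 5 of 6 leukemias, and 1 of the 10 markers, Ltf, passed the test (lower). At an unadjusted p under 0.05 (limma), 4 of the 10 were lower and 0 higher. The median difference of the 10 was -0.46, against -0.053 for all tested genes, of which 9.28% fell past the threshold. With the mean level of these markers as a term in the model, the same 4 enzymes were past the threshold: Mthfd2 at -1.26, Shmt1 at -0.67, Mthfd1 at -0.41 and Psat1 at -0.27 (limma adjusted p = 0.00265, 0.0224, 0.0478 and 0.0323). In the sample descriptions, the DEX libraries of leukemias 2, 5 and 6 lack the S number that closes the other 9. The same leukemias had the clearly higher FPKM sums in DEX given above. Within them, this difference in the descriptions and the treatment cannot be told apart. In leukemias 1, 3 and 4 alone, Mthfd2 stood at -1.24, Shmt1 at -0.63, Mthfd1 at -0.38 and Psat1 at -0.26, and the first 2 passed (adjusted p = 0.00818 and 0.0229), where 4.23% of tested genes fell. In leukemias 2, 5 and 6 alone these values were -1.46, -0.62, -0.49 and -0.38, and Mthfd2 alone passed (adjusted p = 0.00579), where 2.08% of tested genes fell. The 4 enzymes were below 0 in both sets.

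Around the 9 enzymes, 100 further genes were listed by role, and 77 of them were tested. Of these, 28 fell and 3 rose, where 9.28% of all tested genes fell and 4.27% rose. The same 2 shares stand beside the count of each list below, ATF4 targets and regulators included. In the folate cycle and folate transport, 3 of 12 tested genes fell and 0 rose (0 also at an unadjusted p under 0.05), with a median of -0.13. Slc25a32, which carries folate into mitochondria, fell from 8.24 ± 1.12 to 5.58 ± 1.75 FPKM (SD, n = 6), lower in 6 of 6 leukemias (-0.53 ± 0.12 SE, limma adjusted p = 0.02). Slc19a1, the reduced folate carrier of the cell surface, fell from 7.82 to 4.92 FPKM in mean (-0.57, adjusted p = 0.0336), and Mtrr, which reactivates methionine synthase, from 5.94 to 4.55 FPKM (-0.32). Mthfd2l, the relative of Mthfd2, listed at 0 to 4.13 FPKM in VEH, did not pass (-0.33, adjusted p = 0.0859). In glycine cleavage, Gcsh (-0.11) and Dld (-0.043) were tested and did not pass, and Gldc and Amt were below the filter.

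Of 11 tested genes of serine and glycine transport and use, 4 fell and 1 rose (median -0.15). Slc38a2, a neutral amino acid transporter, stood at 63.24 to 93.83 FPKM in VEH and 36.08 to 46.63 FPKM in DEX, with no overlap (-0.81 ± 0.09 SE, adjusted p = 0.00163). The transporters Slc1a5 (-0.46) and Slc38a1 (-0.33) and Sfxn1, which brings serine into mitochondria (-0.31), fell as well, each in 6 of 6 leukemias. Serinc3, a membrane protein named for serine incorporation, rose (0.55 ± 0.15 SE, adjusted p = 0.042) in 5 of 6.

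The pathways that use the carbon units held the following. In purine synthesis, 4 of 12 tested genes fell and 0 rose (0 also unadjusted), with a median of -0.21: Ppat, the first committed enzyme, from 27.0 ± 5.03 to 16.4 ± 3.09 FPKM in mean (SD, n = 6; -0.69, adjusted p = 0.0041), and Atic (-0.36), Prps1 (-0.33) and Gart (-0.32). Gart and Atic are the 2 steps that consume formyl-folate. In the methionine cycle, 2 of 5 fell and 0 rose (0 also unadjusted), namely Mat2a, which makes S-adenosylmethionine (-0.71), and Mtap, which salvages methionine (-0.59). In thymidylate and deoxynucleotide supply, 3 of 12 fell and 0 rose (0 also unadjusted), with a median of -0.15. Dctd, the deaminase that feeds Tyms, fell from 7.28 ± 2.00 to 3.56 ± 1.25 FPKM (SD, n = 6; -0.87, adjusted p = 0.00256), Dut by 0.42 and Rrm2b by 0.39. Like Tyms, the thymidine kinase gene Tk1 (0.069, adjusted p = 0.684) and the reductase subunit genes Rrm1 (0.050, adjusted p = 0.722) and Rrm2 (-0.21, adjusted p = 0.189) did not pass.

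**Figure D4:**
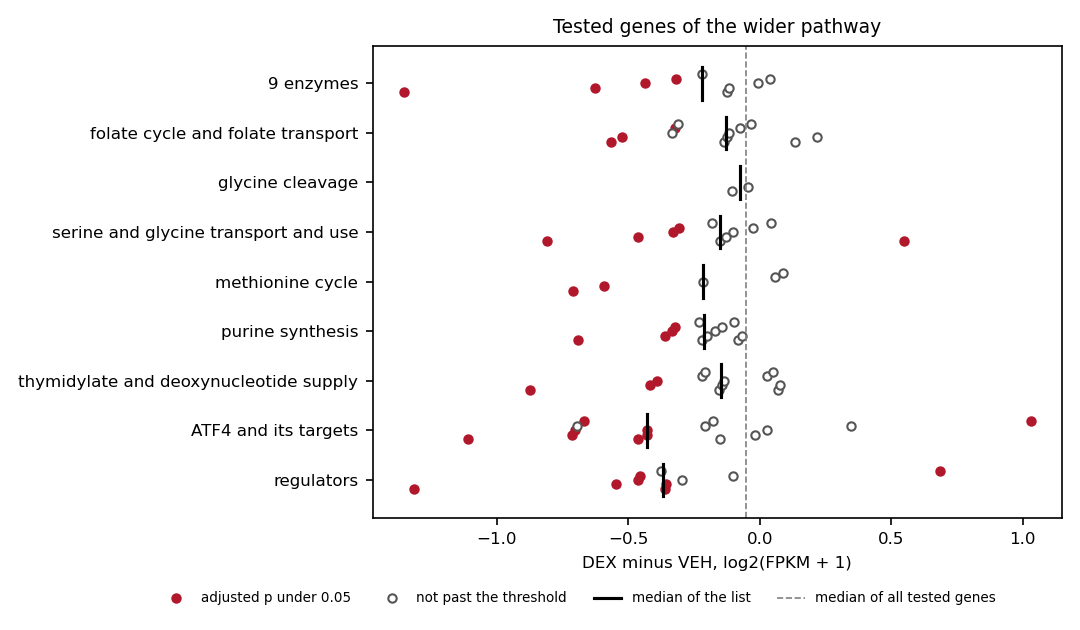
Log2(FPKM + 1) in DEX minus VEH (horizontal axis) for the tested genes of each list (rows). Filled points passed the test, black ticks are list medians and the dashed line is the median of all tested genes (-0.053), and 3 filled points lie above 0 (Serinc3, Slc7a11 and Nr3c1).

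Atf4, a transcription factor known to drive Phgdh, Psat1, Shmt2 and Mthfd2, fell from 85.8 ± 19.4 to 62.8 ± 16.9 FPKM (SD, n = 6; -0.46 ± 0.07 SE, adjusted p = 0.00625). It was lower in 6 of 6 leukemias, by 0.66, 0.36, 0.54, 0.26, 0.65 and 0.30 on the log2 scale in leukemias 1 to 6. Of 15 tested genes in the list of ATF4 and its targets, 7 fell and 1 rose (median -0.43). Slc7a1 (-1.11), Ddit3 (-0.72) and Cars (-0.67) fell, Slc7a11 rose (1.03), and the target Asns, the asparagine synthetase gene, did not pass (-0.18, adjusted p = 0.267). Of 10 tested regulators, 6 fell and 1 rose (median -0.37), and Atf4 is counted among those that fell in both lists. Myc fell by 1.67, 0.67, 1.48, 1.46, 1.25 and 1.35 in leukemias 1 to 6. Mthfd2 fell by 1.55, 1.89, 1.24, 0.93, 1.36 and 1.14 in the same leukemias. The 3 orders differ, and no relation between these changes was tested. E2f3 fell by 0.55, while E2f1 (-0.30, adjusted p = 0.161) and E2f2 (-0.38, adjusted p = 0.101) did not pass. Nr3c1, the glucocorticoid receptor gene, rose by 0.69.

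Across the 12 libraries, the genes whose log2 level followed that of Mthfd2 most closely were Cars, the cysteinyl-tRNA synthetase gene (Pearson r = 0.958), Trmo (0.958) and Irf2bp2 (0.949), out of 9093 genes with a mean of at least 5 FPKM. Those nearest to Shmt1 were Pus7 (0.972), Polr2h (0.963) and Hnrnpf (0.962), and those nearest to Mthfd1 were Pum3 (0.957), Ddx21 (0.945) and Nat10 (0.945). Psat1 was followed by Snrpa1 (0.974), Utp6 (0.965) and Cycs (0.963), and Phgdh by Arpc3 (0.969), Aprt (0.964) and Rpl36al (0.96). For Shmt2 they were Mrpl38 (0.945) and Eif3c (0.929), and for Mthfd1l Slc23a4 (0.93), Alad (0.925) and Immt (0.92). Psph was nearest to Ccdc28b (0.951), Galt (0.942) and Sdc4 (0.922), and Tyms to Sgpl1 (0.948), Elmo2 (0.915) and Top2a (0.901). Among the enzymes themselves, Mthfd1 and Psat1 were the closest pair (0.904), then Mthfd1 and Shmt1 (0.868) and Shmt1 and Psat1 (0.868). Mthfd2 was at 0.806 with Shmt1 and at 0.107 with Tyms. The 12 libraries share leukemias and treatment, so these values are descriptions.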

How the data were processed

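Marrow was cleared of red cells and extracted with Trizol, and TruSeq Stranded Total RNA libraries were read from both ends over 100 bases, per the labels' protocols. The deposited values are FPKM made by the authors, linear with 2 decimals, and the submitters' processing notes name build mm10 and Bowtie2 (version 2), RSEM and edgeR without roles. Annotation, strand setting and filters are not given in the sources used here, and nothing says that FPKM were scaled further.

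Values were analysed as log2(FPKM + 1), so fold changes of low genes are understated. Genes with at least 1 FPKM in at least 6 of 12 libraries were tested (12358) with limma 3.58.1 in R 4.3.3 (leukemia as a block, eBayes with trend, two-sided, Benjamini-Hochberg over all tested genes, threshold 0.05). The method was tested on simulated data. The replicate is the leukemia, whose code both titles of a pair share. After removal of group means, the libraries of a pair correlated across genes at 0.55 to 0.82 and others at up to 0.21. Coordinates and exons came from GENCODE M21 (GRCm38, the assembly of mm10) and windows before start sites from RefSeq on GRCm38.p6.

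The enzymes and lists were chosen with earlier results of these data known. Named genes were the 9 enzymes, up to 4 genes of each list with the smallest p, Atf4, Myc and Nr3c1, and the 3 genes most correlated with each enzyme, of which 1 is not reported here. Others named beside them (Asns, Tk1, Rrm1, Rrm2, E2f1, E2f2, Serinc3) were chosen after their values were seen. Alternatives changed the block, pseudocount, filter, scaling and variance model, added a granulocyte term or left out leukemias.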

Additional observations from a re-analysis of the deposited data

Results flagged for a closer look

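In DEX, the Phgdh level of leukemia 6 was 234 FPKM and the next highest library stood at 140.3 FPKM. The gap took 62.7% of the range of the 6 DEX values, which put this library apart from the others by Dixon's criterion. Leukemia 6 also had the highest Phgdh in VEH (219.8 FPKM). In all, 27 sets of 6 values were checked (VEH, DEX and difference of each enzyme), 1 was picked out, and chance picks about 1 in 20.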

How the results depend on the processing

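Mthfd2 stayed past the threshold in 18 of 18 alternatives (-1.48 to -1.24). Its estimate without a leukemia ranged from -1.44 to -1.25. Shmt1 passed in 15, Psat1 in 14 and Mthfd1 in 12 of 18, and all 3 stayed below 0 throughout. The number of enzymes that fell was 4, and it was 1 with no replicate block (Mthfd2), 2 with no filter (27663 genes tested; Mthfd1 at an adjusted p of 0.0637 and Shmt1 at 0.0557), 2 in leukemias 1, 3 and 4 alone and 1 in leukemias 2, 5 and 6 alone (the last 2 chosen after seeing the data), and 2 to 4 when 1 leukemia was left out, the 2 being without leukemia 5. The number was 5 with quantile normalization and with rescaling to TPM, where Phgdh passed as well. The unpaired fit leaves the differences between leukemias in the error. Of the wider pathway, 28 genes fell and 3 rose. Without the block 3 fell and 0 rose in limma (26 and 2 at an unadjusted p under 0.05). With no filter 13 of 100 fell, and with 1 leukemia left out 15 to 30 fell (16, 18 and 15 without leukemias 1, 4 and 5). Calls over all tested genes dropped as well. Without the block 46 of 12358 fell and 35 rose, with no filter 370 of 27663 fell, and with 1 leukemia left out 425 to 1042 of 12358 fell. Rescaling to TPM moved the median of all tested genes from -0.053 to -0.17, and there Psph stood at -0.091. Psph was at -0.0018 in leukemias 1, 3 and 4 alone. Tyms was at 0.044 with median-of-ratios scaling, 0.087 with the granulocyte term, 0.14 in leukemias 1, 3 and 4 alone and -0.044 to 0.053 with 1 leukemia left out. With 1 leukemia left out the differences in change were 0.45 to 0.57 (Shmt2 minus Shmt1), -0.97 to -0.84 (Mthfd2 minus Mthfd1) and 0.27 to 0.34 (Mthfd1l minus Mthfd1), each at 0.0625, the smallest p that 5 pairs allow. The number of enzymes that differ between leukemias was 5 to 8 over the alternatives. Depth is not in the file, so no counting interval was given. The cause was not tested for any of the changes.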
